A study of Mus musculus with 4 samples.

Results

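Chemokines and their receptors were examined in bulk RNA-seq of mouse intestine. Members were the genes whose symbols are Ccl, Cxcl, Ccr or Cxcr followed by a number and at most 1 letter, together with Cx3cl1, Xcl1 and Xcr1. The rule found 56 of the 55203 genes listed in each library, namely 39 ligand genes and 17 receptor genes, with 152 transcripts between them. All animals were wild-type C57BL/6NTac males of 8 to 12 weeks, kept specific-pathogen-free (SPF). The series holds 2 libraries from tissue treated with RVC (ribonucleoside vanadyl complex, which inhibits ribonucleases) at 4 mM and 2 labelled fresh frozen, and its stated purpose was a bulk measurement to set beside imaging of transcripts in tissue (MERFISH). A single protocol text, which flushes and rinses the tissue with RVC, accompanies all 4 libraries, so only the labels set the fresh-frozen group apart. The 4 libraries bear 4 different batch numbers, so effects of batch and of group cannot be told apart, and no within-batch value exists. Nothing in the labels says that the libraries came from separate animals, so p-values here measure only the spread between these libraries, which may be technical.

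Chemokines are small secreted proteins that steer the migration of cells bearing matching G protein-coupled receptors. In the intestine, epithelial cells secrete chemokines that draw lymphocytes and IgA-producing plasma cells to the mucosa, lymphatic vessels and lymphoid stroma secrete those that guide dendritic cells and lymphocytes, and macrophages and stromal cells secrete those that act on monocytes, eosinophils and neutrophils. The family is divided by the spacing of the first conserved cysteines of the mature protein.

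The labels name the ileum, whereas the protocol and design texts name the distal colon. Of 10 distal colon markers, 9 reached 1 FPKM (fragments scaled to transcript length and to the mapped total of the library) in every library, with the hindgut homeobox gene Hoxb13 at 121.8 ± 16.02 FPKM (SD, n = 4). Of 10 ileum markers, only the bile acid genes Fabp6 and Slc10a2 did, at 3.37 ± 0.514 and 2.73 ± 0.40 FPKM (SD, n = 4), and 5, Fgf15 and Defa17 among them, were listed at 0 in every library. The markers thus go against the ileum label, and the tissue is called intestine here. The files hold no read counts, so the absolute depth is unknown. Relative to the deepest library, fresh frozen 2, the ratio of coverage to FPKM was 72.6% in fresh frozen 1, 79.8% in RVC 2 and 81.8% in RVC 1.

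Coding sequences around the first cysteines are shown for 3 abundant CC members and 1 member of each other class, because this spacing is what the class names record. Cysteine codons are in capitals, each sequence is written 5′ to 3′ on the coding strand, and coordinates are on GRCm39.
Ccl6, CC class, chr11:83480200-83480229, minus strand: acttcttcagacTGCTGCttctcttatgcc
Ccl21a, CC class, chr4:42773723-42773752, minus strand: gggggtcaggacTGCTGCcttaagtacagc
Ccl28, CC class, chr13:120107416-120107445, plus strand: atggcctccagcTGTTGCactgaggtgtct
Cxcl12, CXC class, chr6:117148457-117148489, plus strand: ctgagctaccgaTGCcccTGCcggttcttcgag
Cx3cl1, CX3C class, chr8:95504667-95504705, plus strand: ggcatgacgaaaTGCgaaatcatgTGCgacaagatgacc
Xcl1, C class, chr1:164760532-164760558, minus strand: gaagagagtagcTGTgtgaacttacaa
In Ccl6, Ccl21a and Ccl28 the cysteine codons are adjacent (0 residues between), in Cxcl12 they are 1 residue apart and in Cx3cl1 3 residues apart, while Xcl1 has a single cysteine there. Each window was located by searching the coding sequence for the spacing of its own class, so the windows illustrate the classes and do not test them.

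The ligands were far more abundant than the receptors. Summed over the 39 ligand genes, RVC 1 and RVC 2 held 285 and 341 FPKM, and fresh frozen 1 and 2 held 289 and 306 FPKM. The 17 receptor genes summed to 5.39, 5.23, 5.42 and 6.33 FPKM in the same order. The ligand sum exceeded the receptor sum 48.4-fold to 65.3-fold within a library. A few genes made up most of the ligand total: Ccl6 alone held 30.3% and 30.8% of it in RVC 1 and RVC 2, and 45.4% and 52.7% in fresh frozen 1 and 2. With Ccl21a and Ccl28 the share reached 61.8% to 73.9%. FPKM is a level per transcript length, so these sums can be set side by side across genes, but a bulk level does not tell fewer cells from less RNA per cell.

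Of the 56 members, 16 reached 1 FPKM in every library, all of them ligands, 9 did so in some libraries and 31 in none. The 5 members listed at 0 in all 4 libraries were Ccl1, Ccl26, Cxcl3, Cxcl15 and Cxcr1. Over the 4 libraries together, 20 members had a mean of at least 1 FPKM and 6 a mean of at least 10. In the order of the means, 16 of the 19 neighbouring pairs among these 20 had overlapping ranges. For 15 of these 16 the order changed between libraries, while Cx3cl1 lay above Ccl21b in each of the 4. The ranges did not overlap between Ccl6 and Ccl21a, between Ccl21d and Cxcl12, and between Ccl27a and Ccl5. Among protein-coding genes of the annotation, Ccl6 stood at the 97.8th percentile of mean FPKM, Ccl21a at the 95.01th, Ccl28 at the 91.6th and Ccr2, the highest receptor, at the 49.4th.

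**Figure D1:**
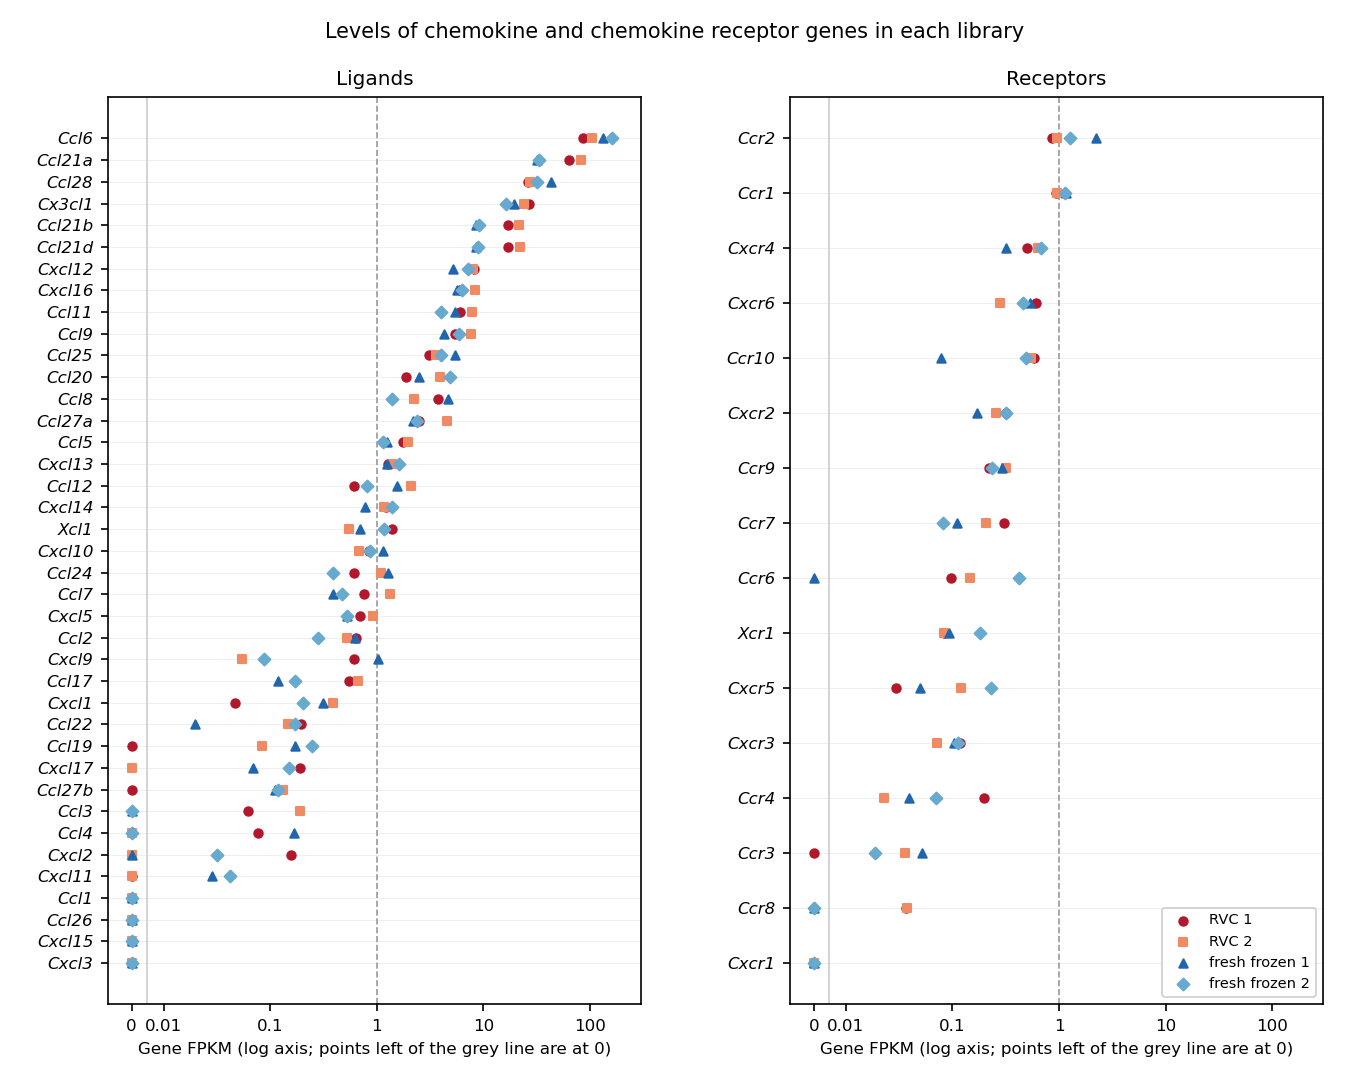
Gene FPKM (log axis) of the 39 ligands (left) and 16 receptors (right) in each of the 4 libraries, ordered by the mean. Points left of the grey line are listed at 0, and the dashed line marks 1 FPKM. Ligand levels run from Ccl6, between 86.5 and 162 FPKM, down to 4 ligands at 0, and only Ccr2 and Ccr1 among receptors reach 1 FPKM in any library.

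Among the 10 ligands grouped here as epithelial, 7 had a mean of at least 1 FPKM. The grouping does not come from these bulk levels, which do not show which cells made each RNA. Ccl28 (ENSMUSG00000074715, chromosome 13, 120085355 to 120115895), which draws IgA-producing plasma cells to mucosal surfaces through Ccr10, was listed at 26.04 and 27.3 FPKM in the RVC pair, and 43.0 and 31.5 FPKM in the fresh-frozen pair. All 4 levels were high for the family, and both RVC libraries lay below both fresh-frozen ones. Cx3cl1 (ENSMUSG00000031778, chromosome 8, 95498637 to 95509055), a membrane-bound chemokine that can be shed and is the ligand of the macrophage receptor Cx3cr1, was listed at 26.5 and 23.8 FPKM with RVC, against 19.4 and 16.2 in fresh frozen. Here both RVC libraries were the higher ones. Cx3cl1 lies on chromosome 8 between Ccl22 and Ccl17, 20.3 kb and 28.0 kb away, and these neighbours had means of only 0.132 and 0.377 FPKM.

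Ccl25 (ENSMUSG00000023235, chromosome 8, 4375210 to 4410020), best known for drawing Ccr9-bearing lymphocytes to the small intestine, was listed at 3.06, 3.55, 5.39 and 4.03 FPKM in RVC 1, RVC 2, fresh frozen 1 and fresh frozen 2. The groups did not overlap, with RVC the lower. Little of this level came from protein-coding transcripts, which held 17.7% to 27.5% of it. On coding transcripts alone, at 0.542, 0.977, 1.48 and 0.951 FPKM in the same order, the groups overlapped. The most abundant transcripts, ENSMUST00000207839 and ENSMUST00000207925, are annotated as retained introns and averaged 1.26 ± 0.216 and 0.929 ± 0.129 FPKM (SD, n = 4), while the most abundant coding transcript, ENSMUST00000024004, averaged 0.577 ± 0.222 FPKM. ENSMUST00000207839 overlaps exons of Elavl1, on the opposite strand, over 257 of 2461 bases. With no strand setting stated, reads there cannot be told apart.

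Cxcl16 (ENSMUSG00000018920, chromosome 11, 70344809 to 70350810), a transmembrane chemokine and the ligand of Cxcr6, was listed at 6.03 and 8.29 FPKM in the RVC pair, and 5.69 and 6.22 FPKM in the fresh-frozen pair, and the groups overlapped. Between 65.9% and 80.6% of this level was assigned to ENSMUST00000126391, a transcript annotated for nonsense-mediated decay. Its exons overlap those of Med11, a Mediator subunit gene on the opposite strand, over 1014 of 1267 bases, and Med11 was listed at 7.07 to 8.08 FPKM. The source files state no strand setting, so reads of Cxcl16 and Med11 cannot be told apart where they overlap. The coding Cxcl16 transcript, ENSMUST00000019064, was listed at 2.00 and 2.23 FPKM with RVC, against 1.06 and 1.73 in fresh frozen, and 72.3% of its exons overlap Med11 as well. Zmynd15, also on the opposite strand, overlaps 18.5% of this transcript and was listed at 1.07 to 1.70 FPKM.

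Ccl20, the ligand of Ccr6 made by the epithelium over lymphoid follicles, was listed at 1.89, 3.89, 2.48 and 4.81 FPKM in the same order of libraries. Its levels varied as much within each group as between the groups. Ccl27a, a ligand of Ccr10 best known from skin, was listed at 2.47, 4.52, 2.2 and 2.4 FPKM over 19 transcripts, with no overlap between groups, although RVC 1 lay next to the fresh-frozen values. Its coding transcripts alone held 1.51, 2.36, 0.798 and 1.71 FPKM, and on these the groups overlapped. Its copy Ccl27b was listed at 0, 0.131, 0.11 and 0.119 FPKM, and a further locus, Gm13306 (Ccl27al in GENCODE), at 0.678, 0.454, 0.847 and 0.226. Every window of 75 bases in the Ccl27b transcript also occurs in another gene, so the division of reads among these loci is uncertain. Ccl27a transcripts also overlap genes on the opposite strand, which cover 66.1% of its transcript ENSMUST00000173865. Cxcl14 averaged 1.13 ± 0.254 FPKM (SD, n = 4) with overlapping groups, and Cxcl17 averaged 0.102 ± 0.0842.

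**Figure D2:**
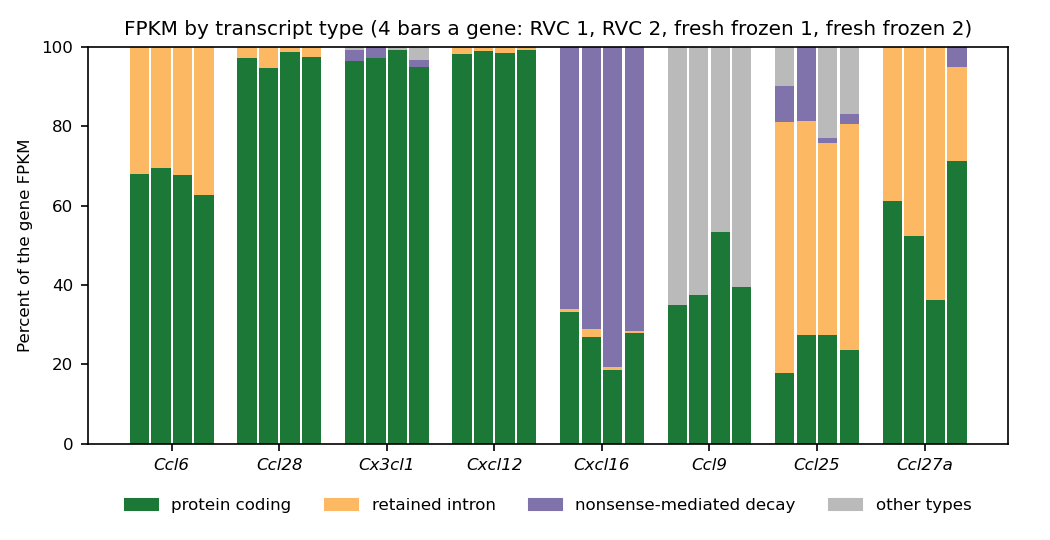
Percent of the gene FPKM (vertical axis) held by transcripts of each GENCODE type for 8 ligands, with 4 bars a gene for RVC 1, RVC 2, fresh frozen 1 and fresh frozen 2. Coding transcripts hold 94.6% or more of Ccl28, Cx3cl1 and Cxcl12 but at most 33.2% of Cxcl16 and 27.5% of Ccl25.

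The lymphoid and tissue-maintenance ligands were led by Ccl21a (ENSMUSG00000094686, chromosome 4, 42772860 to 42773993), which lymphatic endothelium and lymphoid stroma secrete to guide Ccr7-bearing dendritic cells and T cells. It was listed at 63.7 and 82.1 FPKM in the RVC pair, and 31.6 and 33.2 FPKM in the fresh-frozen pair. Both RVC levels lay well above both fresh-frozen levels. The mouse genome carries several near-identical copies of this gene, and the files list 5 of them on chromosome 4. Ccl21b was listed at 17.1, 21.8, 8.60 and 8.99 FPKM and Ccl21d at 17.1, 21.8, 8.52 and 8.90 in RVC 1, RVC 2, fresh frozen 1 and fresh frozen 2. Outside the naming rule, Gm13304 and Gm10591, called Ccl21f and Ccl21e in GENCODE, were listed at 17.2, 21.5, 8.61 and 8.89 and at 17.1, 21.8, 8.58 and 8.99 FPKM.

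The Ccl21b, Ccl21d, Gm13304 and Gm10591 transcripts have no mismatch to Ccl21b over their aligned length. Against them the Ccl21a transcript differs at 6 of 869 aligned bases (99.31% identity with Ccl21b), which are G26A in the 5′ UTR, T161A and C271T in the coding sequence, and C642T, T814C and G858A in the 3′ UTR. Positions count from 1 at the 5′ end of the Ccl21a transcript, and the Ccl21a base is written first. Only C271T alters the protein, as S65L, which is the difference behind the names CCL21-Ser and CCL21-Leu. The 29 bases around it are shown because they hold the coding difference that changes a residue, with the differing base in capitals.
Ccl21a: ggcaatcctgttctCaccccggaagcact
Ccl21b: ggcaatcctgttctTaccccggaagcact
Ccl21d: ggcaatcctgttctTaccccggaagcact
Of all windows of 75 bases, 61.2% of those in the Ccl21a transcript and 100% of those in the Ccl21b transcript also occur in another gene.

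Within each library the 4 identical copies were listed at nearly the same level, their spread being 0.62% to 1.61% of their mean. Their sum was 68.6, 86.9, 34.3 and 35.8 FPKM, and Ccl21a stood at 0.921 to 0.945 times that sum in every library. Single Ccl21 loci are listed, counted and tested in this report, but they share reads and are not separate measurements. Summed over the 5 loci, the level was 132 and 169 FPKM with RVC, against 65.9 and 68.9 in fresh frozen, which was above Ccl6 in both RVC libraries and below it in both fresh-frozen ones.

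**Figure D3:**
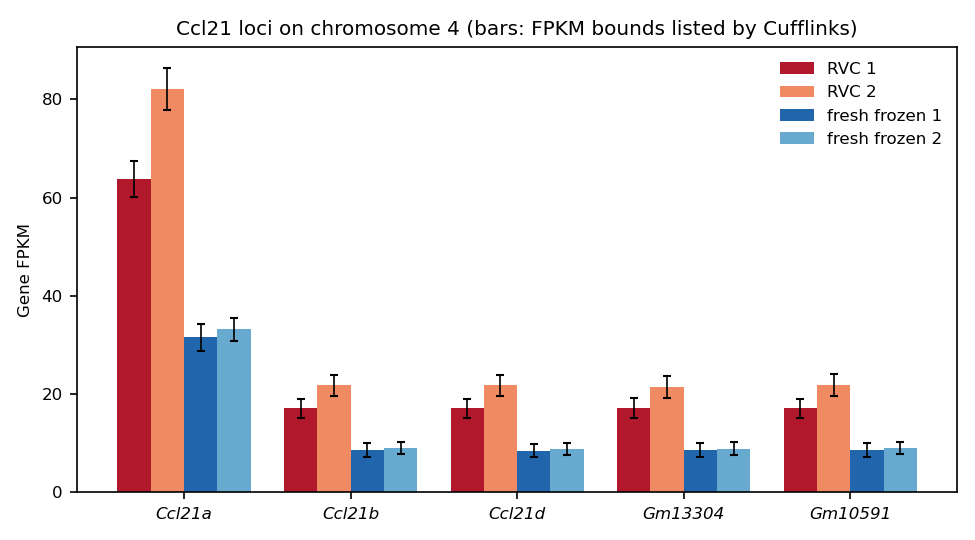
Gene FPKM of the 5 Ccl21 loci in each library, with bars from 0 and whiskers for the FPKM bounds that Cufflinks lists. Ccl21a stands at 31.6 to 82.1 FPKM and each of the 4 identical copies at 8.52 to 21.8, and the RVC bars are the higher ones at every locus.

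Cxcl12 (ENSMUSG00000061353, chromosome 6, 117145496 to 117158328), the ligand of Cxcr4 that stromal cells and vessels secrete, was listed at 8.14 and 7.93 FPKM in the RVC pair, and 5.19 and 7.22 FPKM in the fresh-frozen pair. Fresh frozen 1 was the lowest, and the groups did not overlap. Its splice forms differ in the end of the coding sequence. The windows below start at the last 4 codons shared by all 3 forms, and bases of each form's own end are in capitals. The gamma form has 30 residues after the shared part, and only the first 18 bases of them are printed.
Cxcl12 alpha, ENSMUST00000112866, 89 residues: gctttaaacaag
Cxcl12 beta, ENSMUST00000112871, 93 residues: gctttaaacaagAGGCTCAAGATG
Cxcl12 gamma, ENSMUST00000073043, 119 residues: gctttaaacaagGGGCGCAGAGAAGAAAAA
The alpha form held 91.2% of the gene level, at 7.24, 7.2, 4.70 and 6.82 FPKM in RVC 1, RVC 2, fresh frozen 1 and fresh frozen 2. The gamma form was listed at 0.578 and 0.577 FPKM with RVC, against 0.224 and 0.232 in fresh frozen, which do not overlap, and the beta form averaged 0.138 ± 0.0521 FPKM (SD, n = 4). No test was made on single transcripts. Cxcl13, which organises B cell follicles through Cxcr5, averaged 1.38 ± 0.174 FPKM (SD, n = 4) with overlapping groups, and Ccl19, the other ligand of Ccr7, averaged 0.125 ± 0.107.

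Of the 9 ligands that act chiefly on monocytes, macrophages and eosinophils, 5 had a mean of at least 1 FPKM. Ccl6 (ENSMUSG00000018927, chromosome 11, 83478708 to 83483913), a rodent chemokine of the macrophage inflammatory group, was the most abundant member, at 86.5 and 105 FPKM in the RVC pair, and 131 and 162 FPKM in the fresh-frozen pair. Both fresh-frozen libraries lay above both RVC libraries. Its coding transcript, ENSMUST00000019071, was listed at 58.8, 73.3, 89.1 and 101 FPKM. A retained-intron transcript, ENSMUST00000138145, held 33.2% of the level and was ordered in the same way, at 27.6, 31.6, 42.0 and 59.7 FPKM.

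Ccl9, a close relative of Ccl6 that lies 9.25 kb away, was listed at only 5.38, 7.69, 4.25 and 5.95 FPKM, with overlapping groups. A 398-base transcript with no defined coding sequence held 59.7% of the Ccl9 level, and the coding transcript was listed at 1.88, 2.87, 2.26 and 2.35 FPKM. The block of chromosome 11 from Ccl5 to Ccl4 (83416604 to 83555509) holds 5 members, Ccl5, Ccl9, Ccl6, Ccl3 and Ccl4, with means from 0.0604 FPKM in Ccl4 to 121 in Ccl6. In the other cluster on this chromosome (81926397 to 82007625), which holds Ccl2, Ccl7, Ccl11, Ccl12 and Ccl8, means ran from 0.517 to 5.82 FPKM. This range leaves out Ccl1, which lies 59.9 kb from Ccl8 and was listed at 0 in every library.

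Ccl11 (eotaxin, a ligand of the eosinophil receptor Ccr3) led that second cluster, at 6.04 and 7.84 FPKM with RVC, against 5.36 and 4.03 in fresh frozen. The groups did not overlap, though RVC 1 and fresh frozen 1 were close. Ccl8, a ligand of Ccr8 in mice, was listed at 3.77, 2.25, 4.66 and 1.39 FPKM, a spread within fresh frozen that exceeded any difference between the groups. Ccl2, the leading ligand of Ccr2 and a gene induced in inflammation, averaged 0.517 ± 0.166 FPKM (SD, n = 4).

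Ligands of activated T cells, dendritic cells, neutrophils and the interferon response were scarce. Among the 7 T cell and dendritic cell ligands only Ccl5, made by T and natural killer cells, had a mean of at least 1 FPKM, and it was listed at 1.77 and 1.98 FPKM in the RVC pair, and 1.24 and 1.14 FPKM in the fresh-frozen pair. The RVC levels were the higher ones without overlap. Summed over the 4 ELR-type CXC ligands that draw neutrophils (Cxcl1, Cxcl2, Cxcl3 and Cxcl5), the level was 0.757 to 1.30 FPKM in a library. Over the interferon-inducible ligands Cxcl9, Cxcl10 and Cxcl11 it was 0.741 to 2.2 FPKM. Cxcl9 was uneven, at 0.607 FPKM in RVC 1 and 1.02 in fresh frozen 1 but 0.0545 in RVC 2 and 0.0865 in fresh frozen 2, and a retained-intron transcript of 370 bases held most of its level in RVC 1 and fresh frozen 1, at 0.566 and 0.844 FPKM, but was at 0 in RVC 2 and fresh frozen 2.

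Receptors were listed low, with means from 0 to 1.33 FPKM. Ccr2 (ENSMUSG00000049103, chromosome 9, 123901987 to 123913594), the receptor by which monocytes enter tissue, was listed at 0.852 and 0.950 FPKM with RVC, against 2.24 and 1.27 in fresh frozen. Both fresh-frozen levels were the higher ones, and fresh frozen 1 stood out. Ccr1 (ENSMUSG00000025804, chromosome 9, 123762161 to 123768729), a receptor of macrophage inflammatory chemokines on myeloid cells, was listed at 0.94 and 0.961 FPKM in the RVC pair, and 1.16 and 1.15 FPKM in the fresh-frozen pair. The difference was small, but the 4 values did not overlap.

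The receptors described next were all below 1 FPKM in every library. Cxcr4, the receptor of Cxcl12, was listed at 0.504, 0.642, 0.32 and 0.684 FPKM in RVC 1, RVC 2, fresh frozen 1 and fresh frozen 2. Cxcr6, found on T cells and innate lymphoid cells, was listed at 0.611, 0.28, 0.536 and 0.459 FPKM. For both of these receptors the groups overlapped. Ccr10, carried by IgA plasma cells, was listed at 0.585, 0.55, 0.0777 and 0.491 FPKM. Fresh frozen 1 was far below the other libraries for Ccr10, and it was also the lowest for Cxcr4. Cxcr2, the neutrophil receptor, was listed at 0.321, 0.258, 0.172 and 0.316 FPKM, and Ccr9, the gut-homing receptor of Ccl25, at 0.218, 0.32, 0.293 and 0.235. The 9 receptors of lowest mean lay between 0 FPKM in Cxcr1 and 0.175 FPKM in Ccr7.

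Markers of the lymphocytes and dendritic cells that carry many of these receptors were low, and their part in the receptor levels was not tested. All 9 T cell markers, all 8 B cell markers and all 6 dendritic cell markers had means below 1 FPKM, and their summed levels were 2.93 to 4.66, 0.538 to 4.97 and 1.02 to 2.21 FPKM a library. The B cell sum was lowest in fresh frozen 1, at 0.538 FPKM, against 3.00, 3.59 and 4.97 in RVC 1, RVC 2 and fresh frozen 2. Among 7 neutrophil markers Mpo was listed at 0 and 5 others stayed below 0.2 FPKM, while Ly6g was listed at 170 to 333 FPKM. Macrophage markers were present, with C1qa at 12.7 ± 3.76 FPKM (SD, n = 4). Of 7 plasma cell markers, 4 reached 1 FPKM in every library, with means of 372 FPKM in Igkc and 184 in Igha.

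Levels of ligands and their receptors were set side by side for 33 known pairs. The ligand was above the receptor in every library in 20 pairs, below it in every library in 5, and of mixed order in 7. In the remaining pair, Ccl1 with Ccr8, the ligand was at 0 throughout and both genes were at 0 in fresh frozen. The loci Ccl21a, Ccl21b and Ccl21d, which share reads, make up 3 of the 20 pairs. By their means the sum of the 5 Ccl21 loci exceeded Ccr7 623-fold, Ccl28 exceeded Ccr10 75.05-fold, Cx3cl1 exceeded Cx3cr1 36.8-fold and Ccl25 exceeded Ccr9 15.04-fold. The pairs with the receptor higher throughout included Ccl2 with Ccr2. These ratios compare RNA levels per length and say nothing of protein. They use whole gene levels, and coding transcripts held 24.6% of the mean level of Ccl25 but 89.3% of that of Ccr9.

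RVC was then compared with fresh frozen on log2(scaled FPKM + 1), a scale on which the fold change of low genes is understated. With limma and Benjamini-Hochberg adjustment over 13771 tested genes, 5 genes passed an adjusted p of 0.05 (0.0363%), 2 higher and 3 lower in RVC. Of the 56 members, 20 passed the filter of a mean of at least 1 scaled FPKM, and 0 of these 20 passed the threshold. Ccr1 and Ccr2 passed that filter only through the fresh-frozen libraries, both being below 1 in RVC. Both are among the members counted next as lower in RVC without overlap, and Ccr2 among those lower at an unadjusted p under 0.05. Without adjustment, 10 of the 20 had a p under 0.05 (6 with higher and 4 with lower RVC means), against 18.4% of all tested genes. The groups did not overlap in 13 of the 20, 8 higher and 5 lower in RVC, against 53.2% of all tested genes. The median log2 fold change over the 20 was 0.16 and over all tested genes 0.01. The Ccl21 loci count 3 times in these numbers although they share reads. With the 3 Ccl21 loci summed, and Ccl27a summed with Ccl27b, 8 of 18 members had an unadjusted p under 0.05. Of these 18, 10 did not overlap (55.6%), against 53.2% of all tested genes, at a median of 0.10. With all listed Ccl21 and Ccl27 loci summed, an alternative added after seeing the data, 11 of 18 did not overlap (61.1%). An exact permutation test of 2 against 2 libraries cannot give a p below 0.333 for a single gene.

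**Figure D4:**
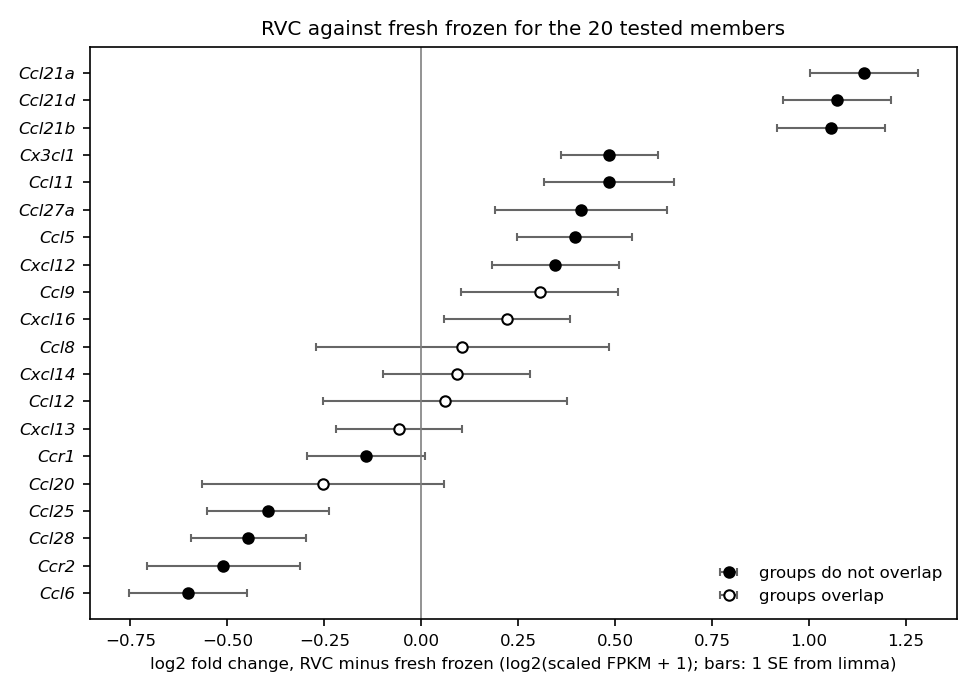
Log2 fold change of RVC minus fresh frozen for the 20 tested members (horizontal axis, log2(scaled FPKM + 1)), with bars of 1 standard error from limma. Filled points mark the 13 members whose groups do not overlap. The 3 Ccl21 copies lie between 1.06 and 1.14, and Ccl6 lies lowest, at -0.60.

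The largest differences were those of the Ccl21 loci. Ccl21a had a log2 fold change of 1.14 (SE 0.139, limma adjusted p 0.0743), with 72.9 ± 12.7 scaled FPKM in the RVC group and 32.3 ± 1.57 in the fresh-frozen group (SD, n = 2 each). Ccl21d and Ccl21b followed at 1.07 and 1.06, with the same adjusted p. With RVC 1 left out, all 3 passed the threshold, Ccl21a at a log2 fold change of 1.32 (limma adjusted p 0.0422). In that fit the lone RVC library is assumed to vary like the others. Over all alternatives tried, the adjusted p of Ccl21a ran from 0.00652 to 0.402 and its log2 fold change from 0.96 to 1.32.

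Lymphatic endothelium markers summed to a higher level in the same libraries, although the groups overlapped for Prox1 and Mmrn1. Mmrn1 stood at 9.251 FPKM in RVC 1 and 9.305 in fresh frozen 2. Summed over the list of 6, the level was 35.0 and 46.3 FPKM in RVC against 24.2 and 26.2 in fresh frozen. Of the 5 tested, all had higher means in RVC, 2 at an unadjusted p under 0.05 and 0 after adjustment, at a median log2 difference of 0.47, and no marker was at 0. The hyaluronan receptor gene Lyve1 was listed at 14.1 and 17.4 FPKM with RVC, against 8.14 and 7.14 in fresh frozen, a log2 fold change of 0.96 (SE 0.136, limma adjusted p 0.104), while Prox1, the transcription factor that defines these cells, was listed at 0.816, 0.972, 0.649 and 0.868 FPKM and was not tested for its low level. Smooth muscle and blood endothelium markers were higher in RVC as well. The 6 smooth muscle markers summed to 1089 and 1629 FPKM in the RVC pair, and 666 and 718 FPKM in the fresh-frozen pair (median log2 fold change 0.88, 6 of 6 at an unadjusted p under 0.05), and the 7 blood endothelium markers to 26.02 and 25.4 against 13.8 and 16.7 (median 0.54, 7 of 7). None of these markers passed the adjusted threshold. Of all tested genes, 18.4% had an unadjusted p under 0.05. Markers of lymphoid stroma and follicles were low, summing to 0.457 to 2.56 FPKM. The part of these cells in the Ccl21 difference was not tested.

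**Figure D5:**
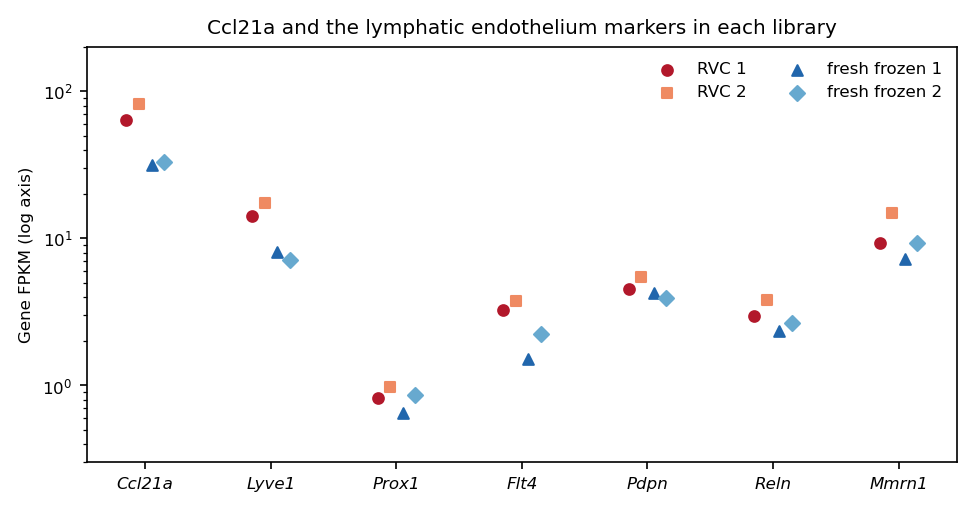
Gene FPKM (log axis) of Ccl21a and the 6 lymphatic endothelium markers in each library. RVC points of Ccl21a, Lyve1, Flt4, Pdpn and Reln lie above both fresh-frozen points, and those of Prox1 and Mmrn1 overlap them.

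Of the other members higher in RVC without overlap, Cx3cl1 had a log2 fold change of 0.49 (SE 0.125, limma adjusted p 0.146) and Ccl11 one of 0.48 (SE 0.169, adjusted p 0.21). Ccl27a, Ccl5 and Cxcl12 stood at 0.41, 0.40 and 0.35. The Ccl27a difference rests on RVC 2, without which it was 0.08, and that of Cxcl12 on fresh frozen 1, without which it was 0.13. On coding transcripts alone the Ccl27a groups overlapped. Ccl11 stood at 0.32 without RVC 2. Epithelium markers gave little difference, with a median log2 difference of 0.08 over 8 genes and 0 of them at an unadjusted p under 0.05, and fibroblast markers a median of 0.16 over 6 with 0 of them. Of 7 plasma cell markers 4 were tested, all with higher means in RVC. Of these, 3 had an unadjusted p under 0.05, against 18.4% of all tested genes, and 0 passed after adjustment. The list summed to 922 and 820 FPKM in RVC against 312 and 527 in fresh frozen. Most of this was Igkc (525 and 484 against 172 and 306) and Igha (291 and 244 against 66.7 and 134). Tnfrsf17, Derl3 and Prdm1 were too low to be tested, and Derl3 overlapped, at 0.246 and 0.483 FPKM in RVC against 0.482 and 0.352.

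Lower in RVC without overlap were Ccl6, Ccr2, Ccl28, Ccl25 and Ccr1. Ccr2 and Ccr1 entered the test only through their fresh-frozen levels, so the filter itself favoured this direction for them. Ccl6 had a log2 fold change of -0.60 (SE 0.152, limma adjusted p 0.144), at 95.9 ± 12.9 scaled FPKM in the RVC group and 146 ± 23.4 in the fresh-frozen group (SD, n = 2 each). It was 1.52-fold higher in fresh frozen. On its coding transcript alone, an alternative added after seeing the data, the log2 fold change was -0.53. Ccr2 followed at -0.51 (SE 0.198, adjusted p 0.244), Ccl28 at -0.45 (SE 0.148, adjusted p 0.198), Ccl25 at -0.39 (SE 0.158, adjusted p 0.255) and Ccr1 at -0.14 (SE 0.152, adjusted p 0.628). Ccr2 rests on fresh frozen 1: without it the log2 fold change was -0.27. Ccl28 shrank to -0.25 without the same library, and Ccl25 to -0.24. On coding transcripts alone the Ccl25 groups overlapped.

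Macrophage markers did not share the direction of Ccl6 and Ccr2. Of 9 tested, 8 had higher means in RVC, and the median log2 difference was 0.40. Their levels summed to 65.2 and 68.7 FPKM in RVC against 52.0 and 45.5 in fresh frozen, and their part in the Ccl6 and Ccr2 differences was not tested. For the remaining 7 tested members (Ccl8, Ccl9, Ccl12, Ccl20, Cxcl13, Cxcl14 and Cxcl16) the groups overlapped, with log2 fold changes from -0.25 in Ccl20 to 0.31 in Ccl9. The Ccl9 value was 0.08 without RVC 2 and 0.09 without fresh frozen 1, and that of Cxcl16 was 0.22 in all libraries and 0.02 without RVC 2. The differences of Ccl8, Ccl12, Ccl20, Cxcl13 and Cxcl14 turned sign when 1 library was left out. On coding transcripts alone Ccl9 stood at 0.01 and Cxcl16 at 0.39.

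Related genes outside the naming rule were described from fixed lists. Among 8 atypical and related receptors, the scavenger of Ccl21, Ccl19 and Ccl25, Ackr4, was the most abundant, at 8.21 and 11.1 FPKM with RVC, against 10.6 and 9.26 in fresh frozen, above every receptor of the family proper. Its groups overlapped. Ackr3, a scavenger of Cxcl12, was listed at 2.56 and 3.05 FPKM in the RVC pair, and 1.89 and 1.62 FPKM in the fresh-frozen pair (log2 fold change 0.47, SE 0.149, limma adjusted p 0.192). The Ackr3 groups did not overlap, as in 53.2% of all tested genes. Of 3 tested receptors of this list 1 had an unadjusted p under 0.05. Among related ligands, the platelet chemokine Pf4 was listed at 13.2 and 10.9 FPKM with RVC, against 7.43 and 7.04 in fresh frozen, a log2 fold change of 0.66 (SE 0.131, adjusted p 0.129), and the chemerin gene Rarres2 at 44.0 and 45.6 against 35.4 and 33.1, one of 0.38 (SE 0.103, adjusted p 0.155). The 3 tested genes of that list were all higher in RVC at an unadjusted p under 0.05, which 18.4% of all tested genes reached, and none passed the adjusted threshold.

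Of 17 genes of receptor signalling, 15 were tested, 9 with higher and 6 with lower means in RVC, and 4 had an unadjusted p under 0.05, all higher in RVC, against 18.4% of all tested genes. Gnai2, the inhibitory G protein subunit through which chemokine receptors signal, was listed at 75.1 and 78.1 FPKM in the RVC pair, and 60.8 and 53.7 FPKM in the fresh-frozen pair (log2 fold change 0.42, SE 0.108, limma adjusted p 0.146). Among 14 proteases and inducers 10 were tested, and without adjustment 2 with higher and 1 with lower RVC means had a p under 0.05. The lower one was Dpp4, a protease that trims the amino terminus of Cxcl12 and other chemokines, at 6.51 and 5.73 FPKM with RVC, against 10.3 and 11.0 in fresh frozen (log2 fold change -0.71, SE 0.126, adjusted p 0.129). The inducers Tnf, Il1b and Ifng had means of 0.337, 0.249 and 0.0178 FPKM. Of 9 genes of gut homing and adhesion 3 were tested, and 0 had an unadjusted p under 0.05. None of the genes in these 3 lists passed the adjusted threshold.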

How the data were processed

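The 4 libraries (2 RVC, 2 fresh frozen) were analysed from 1 table each. Per the submitters' processing notes and the design text, reads were processed with TopHat2 2.1.1 and Cufflinks 2.2.1 against GRCm39. The annotation release and strand setting were not given in the sources used here. The deposited values are FPKM per transcript with lower and upper FPKM bounds, coverage signal and length, per the file headers. Since FPKM is no count, count models were avoided and depth is unknown. Cufflinks divides reads among near-identical and overlapping transcripts, and short transcripts have unstable FPKM.

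Tables were joined by transcript identifier and FPKM summed per gene. Libraries were scaled by median ratio, and log2(scaled FPKM + 1) was compared with limma 3.58.1 (R 4.3.3; mean-variance trend, two-sided, Benjamini-Hochberg) for genes with a mean of at least 1, a longest transcript of at least 300 nt and status OK. The code was tested on simulated data. Of 152 member transcripts, 149 were in GENCODE vM39, which gave transcript types and sequences. Windows of 75 bases were searched on both strands of its transcripts, and loci of Ccl21a and Ccl27b with BLAST 2.17.0.

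The members and lists were chosen with earlier results of these data known. Given with a value per library were the 12 ligands and 8 receptors of highest mean (1 receptor is not reported here), the 5 tested members with the largest difference in each direction without overlap, the Ccl21 and Ccl27 copies, and split transcripts. Other members are named where they complete a group, chosen after their values were seen.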

Additional observations from a re-analysis of the deposited data

How the results depend on the processing

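The counts of called genes are small and depend on the settings. Against 5 genes in all, no filter on low values, no trend, transcripts under 300 nt left out and, added after seeing the data, protein-coding transcripts only each gave 0, and a mean of at least 5 gave 2. With 1 library left out the count ran from 8 (without RVC 2) through 22 (without fresh frozen 2) and 29 (without RVC 1) to 40 (without fresh frozen 1). Members called ran from 0 to 3 with 1 library left out, the 3 being the Ccl21 loci without RVC 1. The sample numbers share only a number, since each library has its own batch and the correlation of same-numbered deviations was -0.13. With the replicate block, 112 genes and 3 members were called, the Ccl21 loci, with Ccl21a at an adjusted p of 0.00652 (limma). Members without overlap numbered 24 of 51 with no filter (40.5% of all genes) and 8 of 10 at a mean of at least 5 (56.8% of all genes), where the median log2 fold change was 0.41. With 1 library left out members without overlap ran from 15 to 18 (72.5% to 80.2% of all genes), near that share, and the median from 0.10 to 0.37, and 20 to 21 members had a mean of at least 1 FPKM. Of 324 log2 fold changes of single members under alternatives, 7 turned sign, in 5 members and each time with 1 library left out. With 1 library left out, Ccl8 ran from -0.51 (without fresh frozen 2; -0.17 without RVC 1) to 0.72, Ccl20 from -0.64 to 0.12 (0.12 without RVC 1 and without fresh frozen 2), Ccl12 from -0.18 (without fresh frozen 2) to 0.53, Cxcl13 from -0.18 to 0.064 (without fresh frozen 2) and Cxcl14 from -0.13 (without fresh frozen 1) to 0.31. Ccl12 gave no value without RVC 2, where it missed the filter. The cause of these shifts was not tested. Near-identical copies summed, or all listed Ccl21 and Ccl27 loci summed (the latter added after seeing the data), called 0 members. With unknown depth, no floor can be given for members listed at 0.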
